A study of Arabidopsis thaliana with 18 samples.

Results

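*pad2-1* seedlings grown under phosphate limitation (P-lim) were compared with wild-type (WT) seedlings grown in the same way, with 3 arrays for each group, which are 6 of the 18 arrays of the series. The arrays were chosen by their titles, and the comparison was made over 22746 probe sets, all of the array except the control probe sets of the manufacturer. The *pad2-1* P-lim plants carried the *pad2-1* mutation of *GSH1* in the Col-0 background, and the WT P-lim plants were Col-0. Both groups were 18 days old, received 20% of the phosphate of the control medium, a Murashige and Skoog agar with sucrose, and were kept at 22°C with 16 h of light and 8 h of dark. RNA came from the aerial parts and was hybridized to Affymetrix ATH1 arrays, on which a set of short oligonucleotides, the probe set, reads 1 transcript or several similar ones. The other 12 arrays held *pad2-1* and WT plants on the control medium, and *pad2-1* and WT plants on that medium with methyl viologen (MV), a herbicide that passes electrons from photosystem I to oxygen. They were used to set the difference between the genotypes under P-lim beside the difference in the other conditions. The mutant was represented by 1 allele, and whether plants were pooled for an array is not given in the sources used here. The sample descriptions of the WT P-lim arrays name the normal medium, whereas their titles and treatment labels name P-lim, and the grouping followed the titles and treatment labels.

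*GSH1* encodes glutamate-cysteine ligase, which makes γ-glutamylcysteine in plastids, the first step of glutathione synthesis. Glutathione is the main low-molecular thiol of the cell. It reduces hydrogen peroxide through the ascorbate cycle, is joined to toxic compounds by glutathione transferases, serves glutaredoxins as reductant and carries reduced sulfur. *pad2-1* was found as a mutant with little camalexin, an antimicrobial compound, and contains less glutathione than WT. Plants short of phosphate are known to release it from organic compounds, to replace phospholipids by sulfolipids and galactolipids, and to accumulate starch and anthocyanins.

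All values are on the log2 scale of RMA, a method that corrects background, gives all arrays the same distribution and summarizes each probe set, so that a difference of 1 stands for a 2-fold difference. The lower quartile of the P-lim arrays lay between 3.82 and 3.91, and values near it are close to the background, where RMA compresses differences. Arrays of the same group correlated with Pearson's r between 0.9971 and 0.9980 in *pad2-1* P-lim and between 0.9977 and 0.9984 in WT P-lim, over the probe sets of each pair of arrays, many of which move together. *GSH1* had no probe set named by it alone, so the genotype was not checked on these arrays. The aerial tissue was checked with nuclear photosynthesis genes, whose 9 measured members had group means between 10.84 and 13.22, near the top of the scale. Of the 2 measured root markers, the root hair expansin gene *EXPA7* was near the background, at 4.32 ± 0.09 in *pad2-1* and 4.27 ± 0.12 in WT (SD, n = 3 each). *PYK10*, a β-glucosidase of the endoplasmic reticulum bodies of roots and seedlings, had 9.43, 9.46 and 9.56 in the *pad2-1* arrays and 8.85, 9.18 and 8.84 in the WT arrays (difference 0.53, adjusted p = 0.0332, with a highest value of 0.142 when 1 array was left out). Its call was kept only when WT P-lim replicate 2 was the array left out, and its part in the results below was not tested.

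The first question was which transcripts differed between *pad2-1* and WT when both were short of phosphate. Under P-lim 75 probe sets were at least 2-fold higher in *pad2-1* than in WT, 0.33% of all tested, and 4 were at least 2-fold lower, 0.0176%, at an adjusted p under 0.05 (limma, Benjamini-Hochberg correction across all 22746 probe sets). Without a minimum fold 716 were higher (3.15%) and 491 lower (2.16%), and the median difference over all probe sets was 0.00. When each array was shifted to the same median, 600 were higher and 733 lower, so that the share of higher ones was 45% in place of 59.3%, with a median of -0.03, while the counts at 2-fold were 72 and 4. Of the 75 probe sets, 74 had all 3 *pad2-1* arrays above all 3 WT arrays, as had 12.1% of all probe sets. *pad2-1* P-lim replicate 1 was the nearest of the *pad2-1* arrays to WT for 51 of the 75. Without it 103 were at least 2-fold higher and 5 at least 2-fold lower, and what set this array apart was not tested.

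The largest named rises were those of *QQS*, *BGLU28* and *SUFE2*. *QQS* (AT3G30720) is an orphan gene found in Arabidopsis alone that shifts carbon between starch and protein. It had 9.56, 9.62 and 9.55 in the *pad2-1* P-lim arrays and 7.25, 5.87 and 6.77 in the WT P-lim arrays, a 7.71-fold difference (log2 2.95, standard error 0.24, adjusted p = 2.12e-06). The *pad2-1* arrays were close together and far above WT, whose arrays were spread. *BGLU28* (AT2G44460) encodes a β-glucosidase that is known for its rise under sulfur deficiency, where it breaks down glucosinolates. It had 8.37, 8.10 and 8.75 in *pad2-1* and 5.25, 5.14 and 6.0 in WT, a 7.68-fold difference (log2 2.94, standard error 0.25, adjusted p = 2.53e-06). The genotypes were thus apart by more than the whole range of either group. A lack of overlap was, however, a condition for naming these rises. *SUFE2* (AT1G67810) encodes an activator of the plastid cysteine desulfurase that supplies sulfur to iron-sulfur clusters. It had 6.65, 6.88 and 7.07 in *pad2-1* and 4.34, 4.21 and 4.37 in WT, a 5.91-fold difference (log2 2.56, standard error 0.17, adjusted p = 2.15e-07), with the WT arrays near the lower part of the scale.

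*HSP23.5* (AT5G51440), which encodes a mitochondrial chaperone of the small heat shock family, had 5.60, 5.31 and 6.14 in *pad2-1* and 4.19, 4.13 and 4.07 in WT (log2 1.55, adjusted p = 0.000163). The dehydrin gene *LTI30* (AT3G50970), which protects membranes in the cold and in drought, had 7.75, 7.93 and 8.23 in *pad2-1* and 6.28, 6.63 and 6.41 in WT (log2 1.53, adjusted p = 1.2e-05). All of the 15 largest named rises and falls were taken from probe sets whose arrays did not overlap. Their lack of overlap thus follows from that choice. The other 10 of the 15 largest named rises are known in the annotation by their locus tag only, with differences between 1.31 for AT3G05400 and 1.78 for AT3G43110. In AT3G43110 the *pad2-1* arrays were far apart, at 4.53, 6.54 and 5.91, against 3.83, 3.76 and 4.05 in WT (adjusted p = 0.00256). AT1G08310 showed the same order of arrays, with 5.21, 7.08 and 6.35 in *pad2-1* and 4.63, 5.02 and 4.88 in WT (adjusted p = 0.00904). In both genes *pad2-1* P-lim replicate 1 was the lowest *pad2-1* array and lay close to WT. Of the 15 calls, 14 held without each of the 6 arrays in turn. The exception was AT3G16530 (log2 1.51, adjusted p = 0.00971), with 0.0522 without WT P-lim replicate 2, 0.0633 without *pad2-1* P-lim replicate 2 and 0.0527 without *pad2-1* P-lim replicate 3. With only the 6 compared arrays in the fit, AT1G08310 lost its call (adjusted p = 0.0809).

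The largest rise of all belonged to a probe set with no gene name here, 259399_at, with 8.04, 9.13 and 9.50 in *pad2-1* P-lim and 6.34, 5.30 and 6.16 in WT P-lim (log2 2.95, adjusted p = 6.01e-05). The difference was 0.12 in control (adjusted p = 0.917) and 0.22 under MV (adjusted p = 0.808). The difference under P-lim was greater by 2.83 than in control and by 2.73 than under MV (adjusted p = 0.00857 and 0.011). The largest fall was that of 266901_at, also without a name here, with 2.90, 2.82 and 2.85 in *pad2-1* and 4.13, 5.10 and 4.40 in WT (log2 -1.68, adjusted p = 1.44e-05). Its *pad2-1* values lay below the lower quartile of the arrays, so the size of this fall is limited by the background.

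The falls were smaller than the rises. *GRXS8* (AT4G15660), a plant-type glutaredoxin gene with a CC active site, was the 1 named gene among the 4 probe sets at least 2-fold lower. It had 4.30, 3.87 and 4.11 in *pad2-1* and 5.13, 5.08 and 5.24 in WT, a level 2.08-fold lower in *pad2-1* (log2 -1.05, standard error 0.11, adjusted p = 1.2e-05). AT3G19680 had 6.95, 6.74 and 6.71 in *pad2-1* and 7.80, 7.79 and 7.57 in WT (log2 -0.92, adjusted p = 0.000816), and AT3G19850 had 5.78, 5.77 and 5.67 in *pad2-1* and 6.51, 6.66 and 6.73 in WT (log2 -0.90, adjusted p = 4.32e-06). Within each group of these genes the arrays differed by less than the groups did, but they too were chosen for arrays that did not overlap. The 15 largest named falls ended at AT3G49790 with -0.66, and 12 of the calls held without each array in turn. Those of *JOX2* (AT5G05600), *MPC* (AT3G19350) and AT5G44820 did not. *MPC*, a maternally expressed gene of the seed, had 3.93, 3.83 and 3.87 in *pad2-1* and 4.95, 4.66 and 4.04 in WT (log2 -0.67, adjusted p = 0.0162), with calls kept without WT P-lim replicate 3 or *pad2-1* P-lim replicate 1 and adjusted p up to 0.084 without any other array. AT5G44820 had log2 -0.73 (adjusted p = 0.0133), with 0.0588, 0.0511 and 0.0745 without WT P-lim replicate 2, WT P-lim replicate 3 and *pad2-1* P-lim replicate 3. With only the compared arrays in the fit, *JOX2* and *MPC* lost their calls (adjusted p = 0.0785 and 0.0875).

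**Figure D1:**
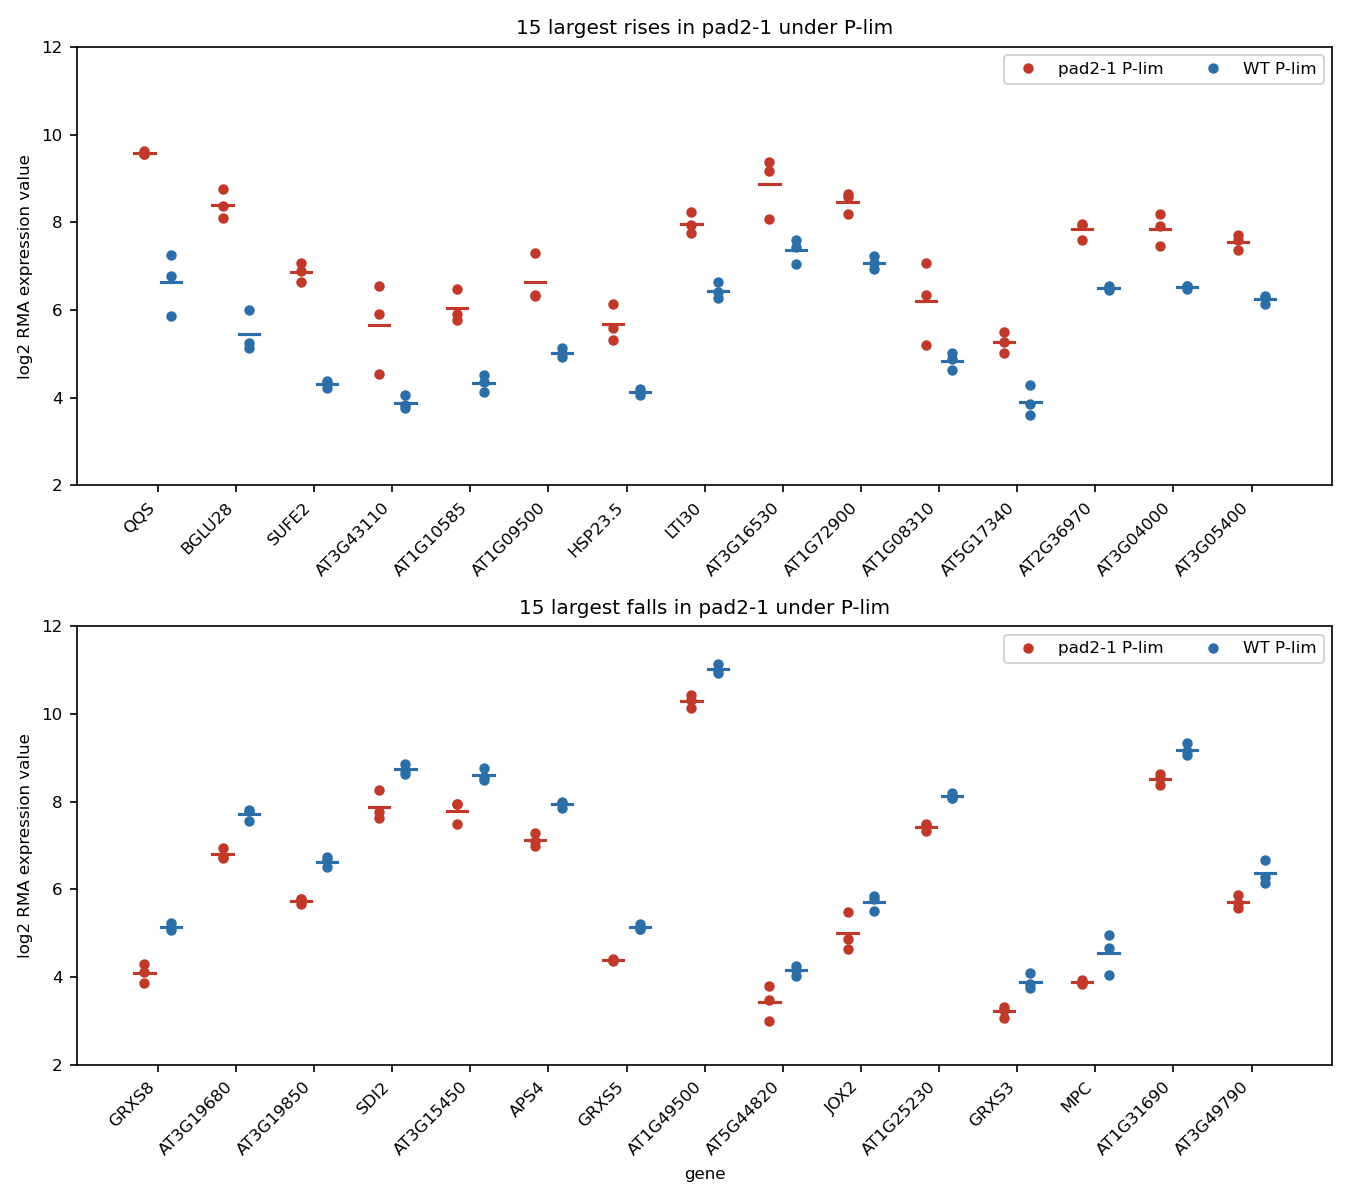
log2 RMA values (vertical axis) of the 15 largest named rises (top) and falls (bottom) in *pad2-1* under P-lim, by gene. Each point is 1 array, with 3 *pad2-1* P-lim arrays in red at the left and 3 WT P-lim arrays in blue at the right of each gene, and bars mark means. *QQS* lies between 9.55 and 9.62 in *pad2-1* and between 5.87 and 7.25 in WT, whereas the falls stay within 1.05 log2 units.

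The next question was which of these differences were particular to P-lim. The genotypes were compared in the control condition and under MV on other arrays, which share no sample with the P-lim comparison, although RMA was run on all arrays together. At the adjusted p alone, 833 probe sets were higher (3.66%) and 611 lower (2.69%) in *pad2-1* in control, and 533 higher (2.34%) and 641 lower (2.82%) under MV. Of the 716 higher under P-lim, 378 were also called higher in control, which is 52.8% of them and 45.4% of the 833. Under MV 208 were called higher, which is 29.1% of the 716 and 39% of the 533. None was called lower in control and 7 were called lower under MV. Of the 491 lower under P-lim, 170 were also lower in control (34.6% of them and 27.8% of the 611) and 121 under MV (24.6% and 18.9% of the 641). Across all probe sets the genotype difference under P-lim had a Pearson's r of 0.566 with that in control and of 0.43 with that under MV, given as a description over 22746 probe sets that share the joint normalization.

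Among the 75 probe sets at least 2-fold higher under P-lim, 48 were called higher in control, 33 in both control and MV, and 27 in neither. A missed call in another condition does not show that the difference was absent there. Of the 75, 69 were above 0 in control and 69 under MV (92% each, against 48% and 44.2% of all probe sets). The median difference of the 75 was 1.35 under P-lim, 1.27 in control and 0.58 under MV. The 75 were chosen for a difference of at least 1 log2 unit under P-lim, which raises the P-lim median only. These medians thus cannot show whether the difference was larger under P-lim. *QQS* was higher in *pad2-1* by nearly the same amount in all conditions, with 2.95 under P-lim, 3.31 in control and 2.94 under MV (adjusted p = 5.13e-08 in control and 5.51e-07 under MV). The tests of its differences between conditions gave adjusted p of 0.814 against control and 0.995 against MV. Of the 15 largest named rises, 10 were called higher in control and 7 under MV. Of the 15 largest named falls, 10 were called lower in control and 5 under MV, and AT3G19680 was called higher in control.

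**Figure D2:**
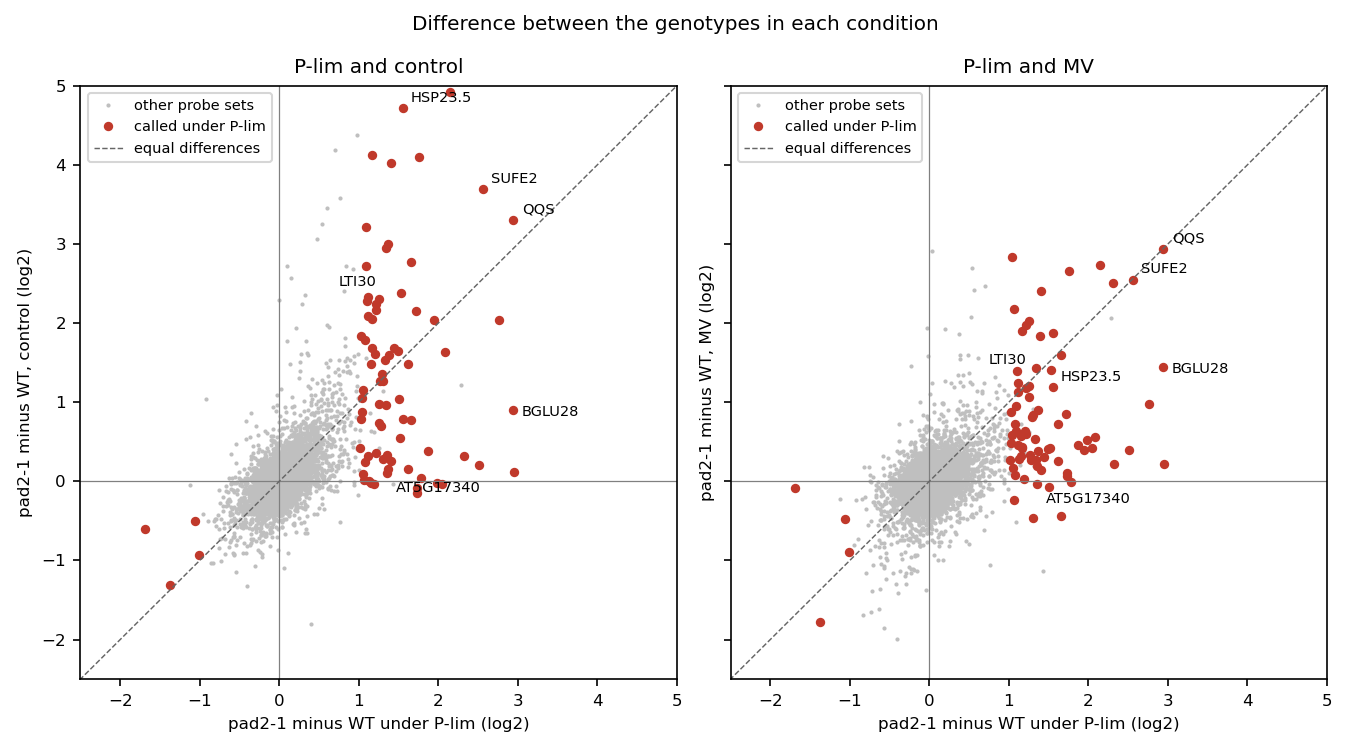
Difference between *pad2-1* and WT (log2) under P-lim on the horizontal axis against the same difference in control (left) and under MV (right), 1 point per probe set. Red points are the 75 higher and 4 lower probe sets at 2-fold under P-lim, the dashed line marks equal differences, and *HSP23.5* lies far above it in the left panel with 1.55 under P-lim and 4.72 in control.

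The genotype difference itself, *pad2-1* minus WT with its sign, was tested for a change between conditions. Greater and smaller refer to this signed value, so a smaller difference can be a weaker rise or a deeper fall. Against control, the difference under P-lim was greater by at least 1 log2 unit for 12 probe sets (0.0528%) and smaller for 45 (0.198%). Against MV it was greater for 30 (0.132%) and smaller for 13 (0.0572%). Without *pad2-1* P-lim replicate 1 the counts of greater differences were 28 against control and 52 against MV. At the adjusted p alone the difference was greater for 42 (0.185%) and smaller for 123 (0.541%) against control, and greater for 189 (0.831%) and smaller for 107 (0.47%) against MV. Of the 123, 43 were called higher and 28 lower in *pad2-1* under P-lim. Of the 107, 8 were called higher and 45 lower, so many of these were deeper falls under P-lim.

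*BGLU28* had the greatest gain against control among the named genes. Its mean was 8.41 ± 0.33 in *pad2-1* P-lim and 5.46 ± 0.46 in WT P-lim, and 5.44 ± 0.57 in *pad2-1* control and 4.54 ± 0.03 in WT control (SD, n = 3 each). The difference was thus 2.94 under P-lim and 0.90 in control, a gain of 2.04 (adjusted p = 0.00857), and its call held without any 1 of the 12 arrays (adjusted p up to 0.0277). Under MV the difference was 1.45, and the gain of 1.49 against MV had an adjusted p of 0.0477, with 0.0578 to 0.129 in the 10 of 12 fits with 1 array left out in which the call was lost, all except those without WT P-lim replicate 3 and *pad2-1* MV replicate 1. AT5G17340 had 5.28, 5.01 and 5.50 in *pad2-1* P-lim and 4.28, 3.60 and 3.85 in WT P-lim. In the other 4 groups its means lay between 3.40 and 3.65, near the background. Its gain was 1.25 against control (adjusted p = 0.00299) and 1.39 against MV (adjusted p = 0.00265), and both calls held without any 1 array.

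AT3G05400 had 7.70, 7.36 and 7.59 in *pad2-1* P-lim and 6.13, 6.29 and 6.31 in WT P-lim. Under MV both genotypes were high, with 7.39 ± 0.12 in *pad2-1* and 7.85 ± 0.57 in WT (SD, n = 3 each), so the gain against MV was 1.77 (adjusted p = 0.00335) and that against control 1.02 (adjusted p = 0.0738). AT2G36970 and AT5G20400 gained 1.07 and 1.30 against MV (adjusted p = 0.0279 and 0.0287), and each call was kept in 4 of the 12 fits with 1 array left out. AT5G60680, AT3G10530 and AT1G36550 gained 0.91, 0.49 and 0.38 against control (adjusted p = 0.0332, 0.0391 and 0.0426), and these calls were lost in 9, 8 and 9 of the 12 such fits, with adjusted p up to 0.0977, 0.121 and 0.115.

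The genotype difference of other genes was smaller under P-lim than in control. AT2G41730, a gene induced by oxidative stress, had 5.89, 5.93 and 6.70 in *pad2-1* P-lim and 5.31, 5.21 and 5.06 in WT P-lim, and 9.48, 9.39 and 8.24 in *pad2-1* control and 4.80, 4.63 and 4.55 in WT control. The difference was 0.98 under P-lim and 4.38 in control, a loss of 3.40 (log2 -3.40, adjusted p = 7.15e-05). *pad2-1* control thus stood far above the other groups, with replicate 3 its lowest array. The probe set of AT2G41730 is of a type that can bind transcripts of related genes. *HSP23.5* had 9.21, 9.21 and 8.31 in *pad2-1* control and 4.26, 4.23 and 4.07 in WT control, so that its difference changed by -3.17 (adjusted p = 3.85e-05). AT3G19680 turned its direction, with a fall of 0.92 under P-lim and 8.12 ± 0.11 in *pad2-1* control against 7.08 ± 0.44 in WT control (SD, n = 3 each, change of the difference -1.96, adjusted p = 7.15e-05). *UPOX* (AT2G21640) and AT5G43450 changed by -1.59 and -1.32 (adjusted p = 0.00873 each). All of these changes passed without each of the 12 arrays in turn.

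Against MV the largest loss among the named genes was that of *STZ* (AT1G27730), also called *ZAT10*, a zinc finger repressor of abiotic stress responses. It had 5.39, 5.63 and 6.43 in *pad2-1* P-lim and 4.90, 4.51 and 4.92 in WT P-lim, and 6.62, 7.14 and 7.59 in *pad2-1* MV and 4.0, 4.32 and 4.51 in WT MV. The change of the difference was -1.80 (adjusted p = 0.013, up to 0.0424 with 1 array left out). AT4G27280, AT3G15450 and AT2G28400 changed by -1.77, -1.0 and -0.87 against MV (adjusted p = 0.00265, 0.00953 and 0.00514). *GRXS5* (AT4G15690), a glutaredoxin gene, changed by -0.76 (adjusted p = 0.0269, kept in 4 of 12 fits with 1 array left out). AT3G15450 and *GRXS5* were lower in *pad2-1* under P-lim and did not pass under MV, where their differences were 0.19 and 0.01 (adjusted p = 0.468 and 0.977).

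**Figure D3:**
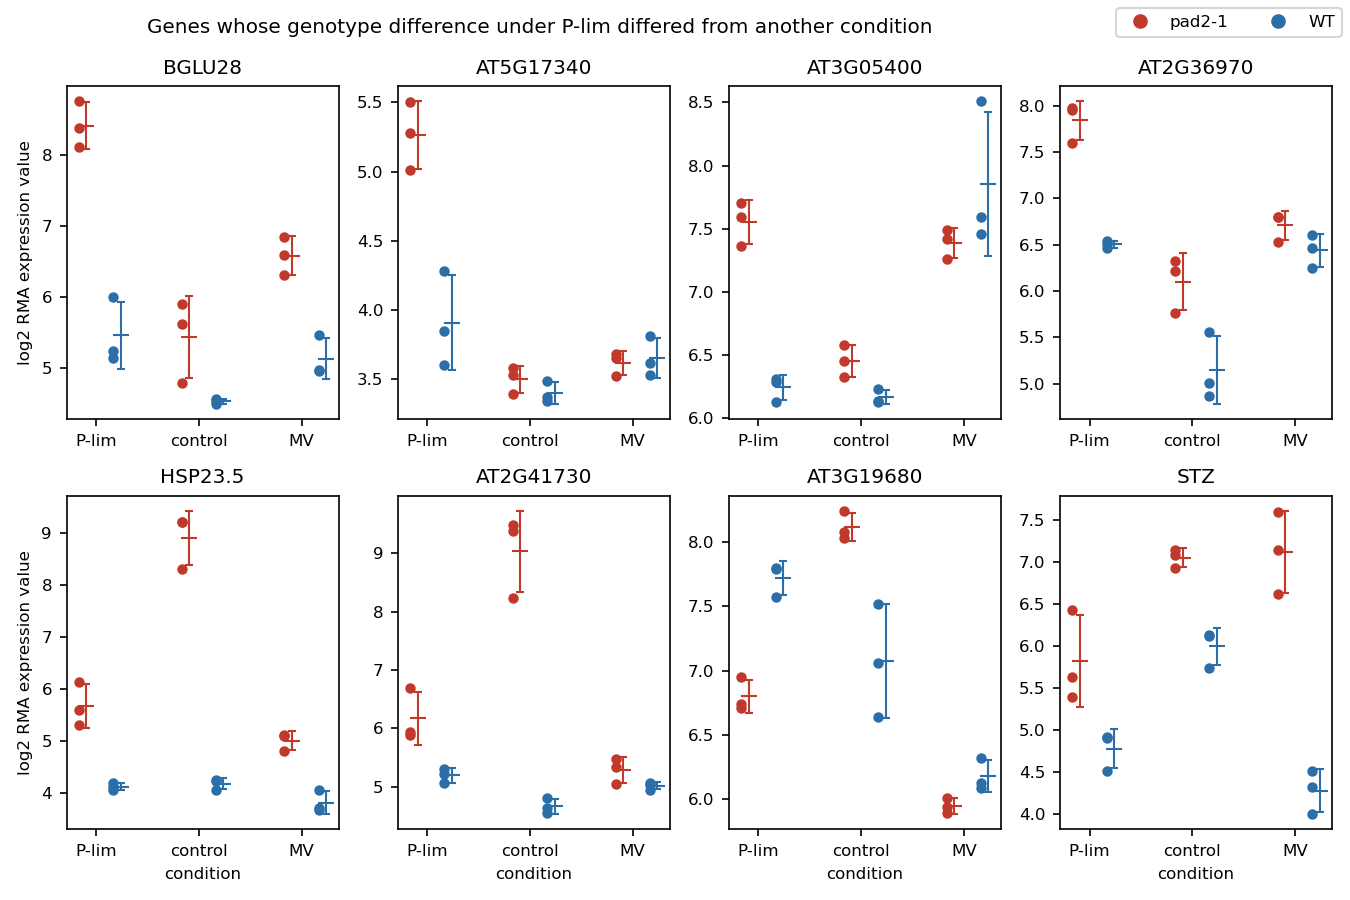
log2 RMA values (vertical axes, scaled for each gene) of 8 genes whose genotype difference under P-lim differed from that in control or under MV, by condition, with *pad2-1* in red at the left and WT in blue at the right of each condition. Points are arrays and bars are mean ± SD (n = 3). *BGLU28* has its highest values in *pad2-1* P-lim, between 8.10 and 8.75, and *HSP23.5* and AT2G41730 have theirs in *pad2-1* control.

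Genes were then read by function, from 30 lists with 840 entries. Named probe sets measured 150 of their genes, and 36 passed the test under P-lim, 26 higher and 10 lower. Of all probe sets 3.15% were higher and 2.16% lower. The lists were chosen with earlier results of these data known. The shares given below beside those of all probe sets are thus descriptions and no independent test. Glycosyltransferases of detoxification, which attach glucose to hormones, defence compounds and foreign chemicals, gave the largest number of rises. Of 13 measured, 6 were higher (46.2%, against 3.15% of all probe sets), none was lower (0 at an unadjusted p under 0.05 in limma), and 7 did not pass, with a median of 0.26 against 0.00 over all. *UGT73B5* (AT2G15480) had 5.59, 5.81 and 5.98 in *pad2-1* and 4.69, 4.60 and 4.48 in WT (log2 1.2, adjusted p = 0.000717). *UGT73C1* (AT2G36750), which can glucosylate cytokinins, had 4.95, 5.03 and 5.25 in *pad2-1* and 4.13, 3.92 and 3.69 in WT (log2 1.16, adjusted p = 0.000809). *UGT73B4* (AT2G15490), a close neighbour and relative of *UGT73B5* with which signal could be shared, had 4.18, 4.63 and 4.92 in *pad2-1* and 3.59, 3.67 and 3.34 in WT (log2 1.05, adjusted p = 0.000908). No array of the genotypes overlapped for these 3 genes, as for 708 of the 716 probe sets called higher and 12.1% of all probe sets.

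*UGT87A2* (AT2G30140) and *UGT73B1* (AT4G34138) rose by 0.80 and 0.54 (adjusted p = 0.000243 and 0.000551). *UGT72E1* (AT3G50740), which glucosylates coniferyl aldehyde, rose by 0.35 (adjusted p = 0.0158, with 0.0757, 0.0709 and 0.0532 without WT P-lim replicate 2, *pad2-1* P-lim replicate 2 and *pad2-1* P-lim replicate 3). *UGT72B1*, which acts on chlorinated phenols, had a difference of 0.24 (adjusted p = 0.0504). In control 6 of the 13 were higher, against 3.66% of all probe sets, and none lower. Under MV 2 were higher, against 2.34% of all, and 1 lower, against 2.82%. The lower one was *UGT72E1* (-0.51, adjusted p = 0.000735). The difference of *UGT72E1* between P-lim and MV passed (0.85, adjusted p = 0.00265), and *UGT73B1* was raised less under P-lim than in control or under MV (-0.74 and -0.70, adjusted p = 0.00311 and 0.00703). Among all 47 probe sets that carry a UGT symbol, a family chosen after the values were seen, 11 were higher (23.4%), none lower (1 at an unadjusted p under 0.05 in limma) and the median was 0.08. The 5 outside the detoxification list were *UGT74D1* (log2 0.89), *UGT84A3* (0.49), *UGT76E11* (0.33), *UGT71B1* (0.21) and *UGT78D2* (0.20). *UGT76E11* and *UGT71B1* lost their calls when any 1 array other than WT P-lim replicate 1 or *pad2-1* P-lim replicate 1 was left out (adjusted p up to 0.164 and 0.128).

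Of 7 measured genes induced by oxidative stress 5 rose, against 3.15% of all probe sets. None fell, also at an unadjusted p under 0.05 in limma, against 2.16% of all, and the median was 0.57 against 0.00 over all. Besides *STZ* (log2 1.04, adjusted p = 0.0131) and AT2G41730 (0.98, adjusted p = 0.0245) they were *AER* (AT5G16970), *ALDH7B4* (AT1G54100) and AT2G04050. *AER* encodes an alkenal reductase that detoxifies reactive carbonyls of oxidized lipids, and it had 8.94, 9.11 and 9.25 in *pad2-1* and 8.45, 8.56 and 8.58 in WT (log2 0.57, adjusted p = 0.000412). *ALDH7B4*, an aldehyde dehydrogenase gene of the same detoxification, rose by 0.44 (adjusted p = 0.00304). AT2G04050, a transporter gene of the MATE family, had 4.97, 5.38 and 5.44 in *pad2-1* and 4.36, 4.42 and 4.42 in WT (log2 0.86, adjusted p = 0.0359). Calls of 3 of the 5 were lost in fits with 1 array left out. *STZ* lost its call without WT P-lim replicate 2 or *pad2-1* P-lim replicate 3 (0.0685 and 0.0713), AT2G41730 without WT P-lim replicates 2 or 3 or *pad2-1* P-lim replicate 3 (0.0671, 0.102 and 0.134), and AT2G04050 without any 1 array except *pad2-1* P-lim replicate 1 (up to 0.133). The ethylene response factor gene *ERF6* and the quinone reductase gene *NQR* had differences of 0.43 and -0.05 (adjusted p = 0.299 and 0.76).

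Of 4 measured genes of mitochondrial stress 3 rose, against 3.15% of all probe sets, none fell and the median was 0.67. *AT12CYS* (AT5G09570), a mitochondrial protein with paired cysteine motifs, had 5.74, 6.02 and 5.78 in *pad2-1* and 5.25, 4.69 and 5.02 in WT (log2 0.86, adjusted p = 0.000844). *NDB2* (AT4G05020), an external NADH dehydrogenase that bypasses complex I, had 6.52, 6.71 and 6.95 in *pad2-1* and 6.20, 6.17 and 6.20 in WT (log2 0.54, adjusted p = 0.000854). *UPOX* had 6.50, 6.60 and 6.59 in *pad2-1* and 5.85, 5.74 and 5.67 in WT (log2 0.81, adjusted p = 0.0208). The groups did not overlap in any of the 3, as for 708 of the 716 probe sets called higher and 12.1% of all probe sets. *UPOX* kept its call only without WT P-lim replicate 1 or *pad2-1* P-lim replicate 1 (0.0645 to 0.0856 otherwise). *NDB2* and *UPOX* were raised less than in control, by 0.59 and 1.59 log2 units (change -0.59, adjusted p = 0.0295, and -1.59), whereas *AT12CYS* had a difference of 0.28 in control (adjusted p = 0.299) and its change of 0.58 did not pass (adjusted p = 0.253). The change of *NDB2* was called in 3 of the 12 fits with 1 array left out, those without *pad2-1* control replicate 3, *pad2-1* P-lim replicate 1 or *pad2-1* P-lim replicate 3 (adjusted p up to 0.0841 in the others).

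Of 8 measured heat shock and chaperone genes *HSP23.5* alone passed under P-lim (12.5%, against 3.15% of all probe sets higher), with a list median of 0.29. In control 7 of the 8 were higher in *pad2-1*, against 3.66% of all probe sets, with a median of 1.45. The difference under P-lim was lower than in control for 4, *HSP23.5*, *HSP17.6B* (AT2G29500, -2.86, adjusted p = 0.000155), *HSP17.6C* (AT1G53540, -2.03, adjusted p = 0.028) and the HSP90-binding isomerase gene *ROF2* (AT5G48570, -1.07, adjusted p = 0.00857). *HSP17.6B*, a small heat shock protein of the cytosol, had 6.29, 6.24 and 6.57 in *pad2-1* P-lim and 5.82, 5.67 and 5.82 in WT P-lim (log2 0.60, adjusted p = 0.165), against 8.60, 8.26 and 7.40 in *pad2-1* control and 4.62, 4.74 and 4.51 in WT control. The P-lim arrays did not overlap, as for 12.1% of all probe sets in this direction, and the test did not pass. *HSP17.6C* had 3.48, 3.69 and 3.86 in *pad2-1* P-lim and 3.14, 3.42 and 3.48 in WT P-lim, near or below the lower quartile of the arrays. In control it had 6.42, 5.92 and 4.62 in *pad2-1* and 3.29, 3.28 and 3.32 in WT. *HSP17.6C* kept its changed difference in 4 of the 12 fits with 1 array left out, those without *pad2-1* control replicates 1 or 3, WT P-lim replicate 1 or *pad2-1* P-lim replicate 3 (adjusted p up to 0.0838 in the others).

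Sulfur assimilation and glutathione genes went both ways, with a median of -0.05. Of 6 measured, 2 were higher (33.3%, against 3.15% of all probe sets) and 2 lower (33.3%, against 2.16%). Besides *SUFE2*, *GR1* (AT3G24170) rose, which encodes the cytosolic glutathione reductase that returns oxidized glutathione to its reduced form. It had 8.94, 9.09 and 9.07 in *pad2-1* and 8.52, 8.52 and 8.63 in WT (log2 0.48, adjusted p = 0.000217), and its difference was 0.56 in control and 0.48 under MV. *APS4* (AT5G43780), an ATP sulfurylase gene of the first step of sulfate assimilation, had 7.29, 6.99 and 7.10 in *pad2-1* and 7.86, 7.96 and 7.99 in WT (log2 -0.81, adjusted p = 5.94e-05). *SDI2* (AT1G04770), a gene induced by sulfur deficiency whose product represses glucosinolate synthesis, had 8.26, 7.77 and 7.63 in *pad2-1* and 8.85, 8.73 and 8.63 in WT (log2 -0.85, adjusted p = 0.000995). Both were lower in control too (-0.48 and -1.03), and under MV neither passed (-0.19 and -0.23, adjusted p = 0.298 and 0.418). The sulfite reductase gene *SIR* and the plastid glutathione reductase gene *GR* had differences of -0.12 and 0.03 (adjusted p = 0.34 and 0.85). The 5 measured genes of aliphatic glucosinolate synthesis, a sink of reduced sulfur, had no call, with differences between -0.12 and 0.17.

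Of 15 measured glutaredoxin and thioredoxin genes 4 fell, all of them glutaredoxins of the CC type (26.7%, against 2.16% of all probe sets), none rose and the median was -0.09. *GRXS5* had 4.38, 4.40 and 4.36 in *pad2-1* and 5.10, 5.09 and 5.21 in WT (log2 -0.75, adjusted p = 0.00058). *GRXS3* (AT4G15700) had 3.07, 3.32 and 3.25 in *pad2-1* and 3.84, 4.09 and 3.75 in WT (log2 -0.68, adjusted p = 0.0038), all near or below the lower quartile of the arrays. *GRXS2* (AT5G18600) stood higher on the scale, with 8.41, 8.09 and 8.27 in *pad2-1* and 8.90, 8.85 and 8.84 in WT (log2 -0.61, adjusted p = 0.000131). *GRXS3*, *GRXS4*, *GRXS5* and *GRXS8* lie in 1 tandem cluster and are similar in sequence, so their probe sets may share signal and the falls may not be independent. *GRXS4* had a difference of -0.09 (adjusted p = 0.782). In control 7 of the 15 were lower, among them the 4, against 2.69% of all probe sets. Under MV 1 was lower, *GRXS8* (-0.47, adjusted p = 0.013), against 2.82% of all. The levels of *GRXS3* under MV, between 2.47 and 2.88 in both genotypes, left little room for a fall.

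**Figure D4:**
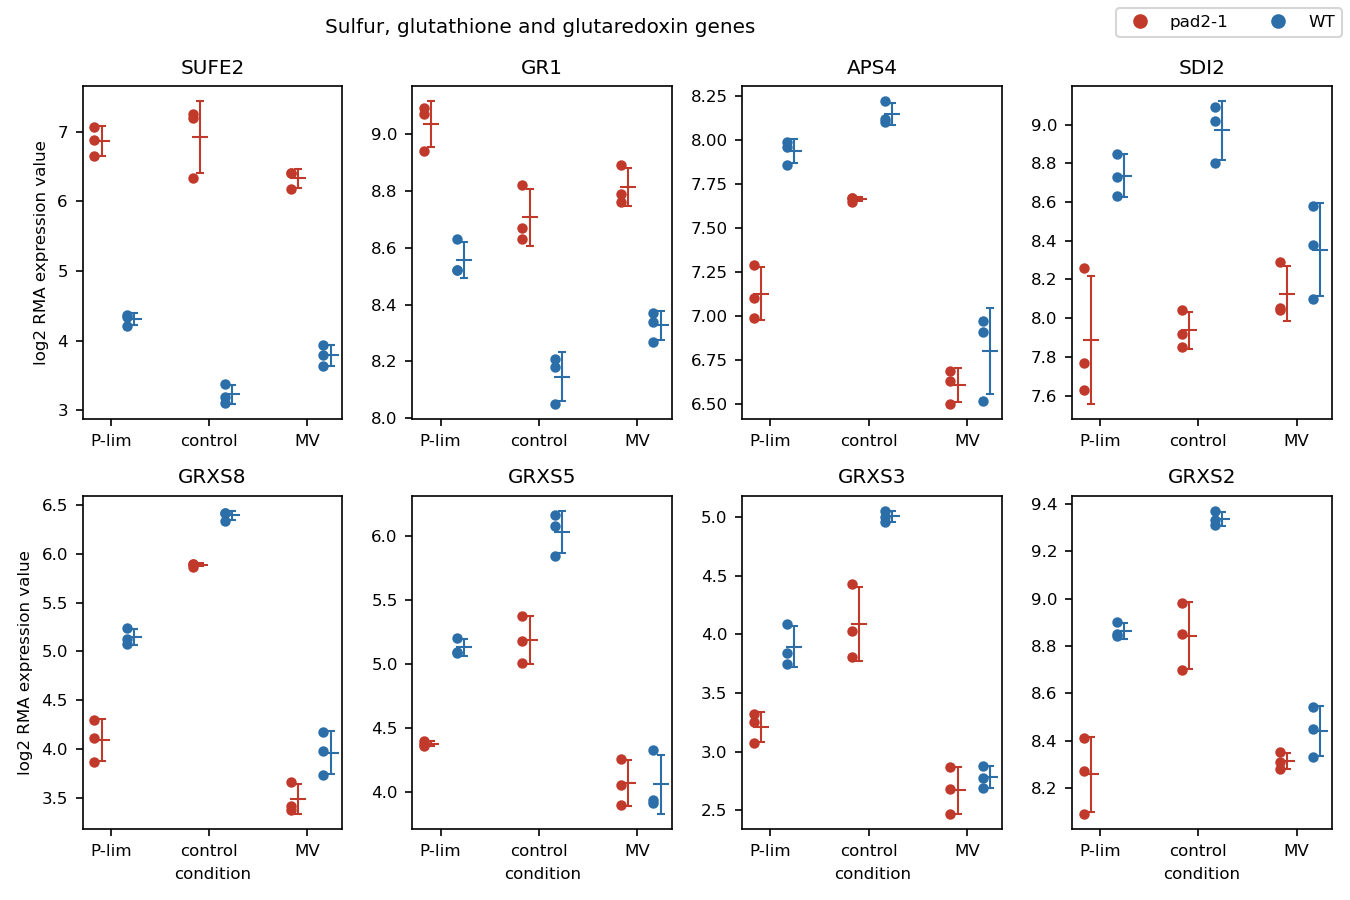
log2 RMA values (vertical axes, scaled for each gene) of 4 genes of sulfur and glutathione metabolism and 4 glutaredoxin genes by condition, with *pad2-1* in red at the left and WT in blue at the right. Points are arrays and bars are mean ± SD (n = 3). *SUFE2* and *GR1* are higher and *APS4*, *SDI2* and the glutaredoxin genes lower in *pad2-1* P-lim than in WT P-lim. Their arrays do not overlap, as for 708 of the 716 probe sets called higher and 488 of the 491 called lower.

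Among 9 measured genes of sugar and starch metabolism, *QQS* and *APL3* (AT4G39210) rose (22.2%, against 3.15% of all probe sets) and none fell, with a median of 0.07. *APL3* encodes a large subunit of ADP-glucose pyrophosphorylase, which makes the substrate of starch synthesis. It had 7.09, 7.10 and 6.92 in *pad2-1* and 6.24, 6.46 and 6.40 in WT (log2 0.67, adjusted p = 0.0023), and the difference was 0.53 in control (adjusted p = 0.00968) and -0.06 under MV (adjusted p = 0.839). The genes of starch breakdown *DPE1*, *DPE2* and *BAM5* had differences of -0.15, 0.06 and 0.07 and did not pass.

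Of 5 measured genes of abscisic acid, cold and dehydration *LTI30* rose (20%, against 3.15% of all probe sets). *COR15A* (AT2G42540) and *COR15B* (AT2G42530) fell (40%, against 2.16%). *COR15A* and *COR15B* encode small proteins of the chloroplast stroma that protect membranes from freezing. *COR15B* had 10.74, 10.94 and 10.73 in *pad2-1* and 11.36, 11.48 and 11.50 in WT (log2 -0.64, adjusted p = 0.000324). *COR15A* had 11.22, 11.20 and 10.95 in *pad2-1* and 11.54, 11.62 and 11.73 in WT (log2 -0.51, adjusted p = 0.00396), and the pair are neighbours of similar sequence. Their differences were -0.23 and -0.28 in control (adjusted p = 0.171 and 0.12) and -0.55 and -0.61 under MV (adjusted p = 0.00103 and 0.000776). *LTI30*, by contrast, was higher in *pad2-1* in all 3 conditions, by 1.53 under P-lim, 2.39 in control and 1.41 under MV.

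Of 4 measured jasmonate genes 1 rose and 1 fell (25% each, against 3.15% and 2.16% of all probe sets). *ACX1* (AT4G16760), an acyl-CoA oxidase of the shortening of the precursor in peroxisomes, had 9.20, 9.24 and 9.27 in *pad2-1* and 8.89, 8.97 and 8.92 in WT (log2 0.31, adjusted p = 0.0033). *JOX2*, a jasmonate oxidase that inactivates the hormone, had 4.64, 5.49 and 4.87 in *pad2-1* and 5.85, 5.50 and 5.77 in WT (log2 -0.71, adjusted p = 0.0132). The highest *pad2-1* array and the lowest WT array nearly met, and without WT P-lim replicates 1 or 3 or *pad2-1* P-lim replicates 1 or 3 the adjusted p of *JOX2* was 0.0605, 0.0594, 0.0641 and 0.0636. Among 9 measured glutathione transferases *GSTU16* (AT1G59700) alone passed (11.1%, against 3.15% of all probe sets higher), with a rise of 0.41 (adjusted p = 0.00547). *GSTU25* had 3.69, 5.02 and 5.69 in *pad2-1* and 3.58, 3.47 and 3.42 in WT (log2 1.31, standard error 0.41, adjusted p = 0.0739). Its *pad2-1* arrays were spread from the background upwards, with *pad2-1* P-lim replicate 1 the lowest.

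Single members passed in several other lists. *HYH* (AT3G17609), a bZIP factor of light signalling, had 5.85, 5.61 and 5.74 in *pad2-1* and 5.12, 5.15 and 4.73 in WT (log2 0.74, adjusted p = 0.0052). *EXLA2* (AT4G38400), an expansin-like gene, fell by 0.30 (adjusted p = 0.0176), as 1 of 12 cell wall genes (8.33%, against 2.16% of all probe sets lower). Its difference of 0.29 in control ran the other way (change -0.59, adjusted p = 0.00826). *UGT78D2* (AT5G17050), which attaches glucose to flavonols, and the cytochrome P450 gene *CYP71B6* (AT2G24180) rose by 0.20 and 0.21 (adjusted p = 0.0455 and 0.0362). These last calls were weak. *EXLA2* kept its call without WT P-lim replicate 3 or *pad2-1* P-lim replicate 1 (up to 0.0943 without others), *UGT78D2* without WT P-lim replicate 1 alone (up to 0.159) and *CYP71B6* without *pad2-1* P-lim replicates 1 or 2 (up to 0.179).

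No member was called in 13 of the 29 lists that had a measured gene, with 45 members in all, of which 5 had an unadjusted p under 0.05 in limma (17% of all probe sets had). The 3 measured genes of the phosphate starvation response were *WRKY6*, *WRKY42* and *LPR1*, regulators of phosphate transfer and root growth, with differences of 0.20, 0.09 and 0.16 (adjusted p = 0.437, 0.611 and 0.65). At an adjusted p that misses the threshold they are not shown to be equal in the genotypes, and the other 49 entries of that list had no value under their own name. The 9 photosynthesis genes had differences between -0.15 and 0.05. The ascorbate peroxidase genes *SAPX* and *TAPX* and the monodehydroascorbate reductase gene *MDAR2*, the measured antioxidant enzymes, had differences of 0.31, -0.07 and 0.18 (adjusted p = 0.346, 0.573 and 0.267). The iron regulators *BHLH101* and *PYE* and the peptide gene *IMA1* had 0.18, 0.10 and -0.08 under P-lim with no call (adjusted p = 0.72, 0.763 and 0.899), and all 3 were higher in *pad2-1* under MV (0.98, 0.55 and 0.83, adjusted p = 0.00335, 0.00931 and 0.022). *IMA1* (AT1G47400) was higher in control too (0.94, adjusted p = 0.00783). The change of their difference between P-lim and MV did not pass for any of the 3 (adjusted p = 0.16, 0.219 and 0.143).

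**Figure D5:**
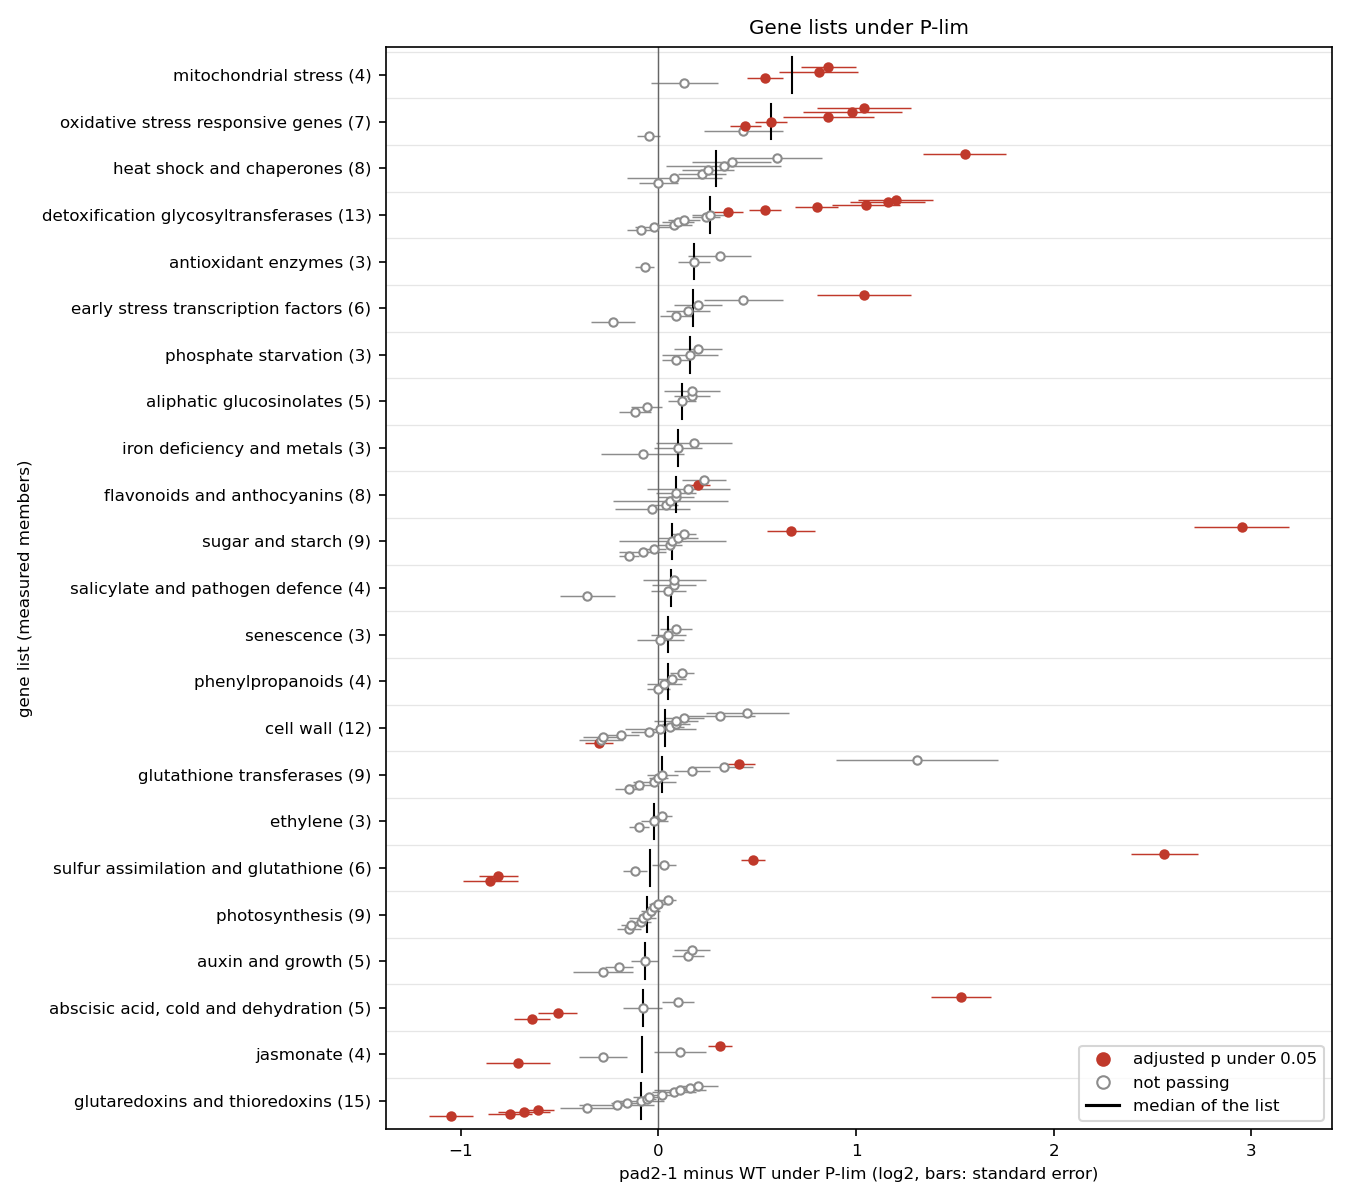
Difference between *pad2-1* and WT under P-lim (log2, horizontal axis) of each measured member of the lists with 3 or more measured genes, with standard errors as bars. Filled red points passed at an adjusted p under 0.05, open points did not, and vertical bars are list medians, the highest of which is 0.67 for mitochondrial stress.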

How the data were processed

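RNA was hybridized to 18 Affymetrix ATH1 arrays, 3 in each of 6 groups, each array a biological replicate per the methods of the study. The authors processed the arrays together by RMA, and the deposited values are log2 intensities (the RMA version is not given in the sources used here). Of 22810 probe sets, 64 controls were left out. A platform annotation and supplementary probe identifiers named 13628 probe sets by 1 gene, 508 by several and 8610 by none. The RefSeq table supplied symbols, and genes it knows by locus only carry the name of the gene list. limma (version 3.58.1, R version 4.3.3) fitted 6 group means over all 18 arrays, with 12 residual degrees of freedom, eBayes and the Benjamini-Hochberg method over 22746 probe sets. Counts used an adjusted p under 0.05 with at least 1 log2 unit where a minimum fold is stated, and single genes and lists the adjusted p alone. The precision is limited by the 3 arrays of each group.

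The named genes were the 15 largest rises and falls with arrays that did not overlap. To these came the 5 largest changes of the genotype difference in each direction, among genes that also passed under P-lim. List members that passed were named too, with up to 4 of each list that did not. For a gene with several probe sets the one with the highest mean was used. Members and lists were chosen with earlier results of these data known. The fit was tested on simulated data. Alternatives were the arrays in the fit, dim probe sets, scaling, the variance prior, the replicate number as a block, the minimum fold, for counts over lists the mean of all probe sets of a gene, and each array left out. The titles give replicate numbers without stating a pairing, and the main tests used no block.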

Additional observations from a re-analysis of the deposited data

Results flagged for a closer look

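The genotype difference under P-lim differed from that in control or under MV for the genes below (adjusted p under 0.05 in limma for the difference of the differences). They were named by the rules above and are a part of the probe sets that passed. Those were 42 greater and 123 smaller against control, and 189 greater and 107 smaller against MV. All changes are in log2 units and are given as P-lim minus the other condition. With 3 arrays in each group, single arrays were not tested as outliers.

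Against control the difference was greater for *BGLU28* (2.04), AT5G17340 (1.25), AT5G60680 (0.91), AT3G10530 (0.49) and AT1G36550 (0.38). It was smaller for AT2G41730 (-3.40), *HSP23.5* (-3.17), *HSP17.6B* (-2.86), *HSP17.6C* (-2.03), AT3G19680 (-1.96), *UPOX* (-1.59), *ERF71* (-1.36), AT5G43450 (-1.32), *SUFE2* (-1.14), *ROF2* (-1.07), *EXLA1* (-1.0), *UGT73B1* (-0.74), *AER* (-0.60), *NDB2* (-0.59) and *EXLA2* (-0.59). For *SUFE2*, which rose in every condition, the adjusted p was 0.0379 and the call was kept in 2 of the 12 fits with 1 array left out, those without *pad2-1* control replicate 3 or *pad2-1* P-lim replicate 3. For *AER* the adjusted p was 0.0199 and the call was kept in 5 of the 12 fits, with values up to 0.0657 in the others.

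Against MV it was greater for AT3G05400 (1.77), *BGLU28* (1.49), AT5G17340 (1.39), AT5G20400 (1.30), AT2G36970 (1.07), *CYP71B23* (1.06), *UGT72E1* (0.85), *APL3* (0.74) and AT3G10530 (0.50). It was smaller for *STZ* (-1.80), AT4G27280 (-1.77), AT3G15450 (-1.0), the ethylene response factor gene *ERF-1* (-0.99), AT2G28400 (-0.87), *GRXS5* (-0.76), AT1G49500 (-0.73), *UGT73B1* (-0.70), *APS4* (-0.62), *GRXS2* (-0.48) and the homeobox gene *HAT2* (-0.44). AT3G15450, *GRXS5*, *APS4* and *GRXS2* were lower in *pad2-1* under P-lim. Their negative change stands for a lower level of *pad2-1* relative to WT under P-lim than under MV, not for a weaker difference. Many of the calls against MV were lost in fits with 1 array left out. Of the 12 fits with 1 array left out, the call was kept in 2 for *APL3*, *GRXS2* and *HAT2*, in 3 for *CYP71B23*, in 4 for AT3G10530 and in 6 for *APS4*, with adjusted p up to 0.111, 0.104, 0.129, 0.107, 0.085 and 0.0908. With only the compared arrays in the fit, *HAT2* (0.0885), *APS4* (0.0781), *GRXS2* (0.0605) and *CYP71B23* (0.0578) lost their calls.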

How the results depend on the processing

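The counts at 2-fold depended on the minimum fold and on dim probe sets. Gains and losses are changes of the signed difference, *pad2-1* minus WT. With the dimmer 50% left out, under P-lim 36 were higher and 0 lower in *pad2-1* (579 lower with no minimum fold), the difference gained against control for 4 and lost for 26, and gained against MV for 10. With no minimum fold the counts were 716 and 491, 42 and 123, and 189 and 107, and with 0.5 log2 units 272 and 91, 31 and 101, and 131 and 65. Trend and robust estimation gave 6 gains against control. With 1 array left out the counts lay between 58 and 103 higher and 3 and 6 lower under P-lim, 6 and 28 gains and 35 and 62 losses against control, and 16 and 52 gains and 8 and 25 losses against MV. Gains against control were 6 without WT control replicate 2 or WT P-lim replicate 2, 7 without WT P-lim replicate 3 or *pad2-1* P-lim replicate 2, and 28 without *pad2-1* P-lim replicate 1. Losses against control were 62 without *pad2-1* control replicate 3. Gains against MV were 16 without *pad2-1* MV replicate 2, 19 without WT P-lim replicate 2 and 52 without *pad2-1* P-lim replicate 1, and losses 8 without *pad2-1* MV replicate 3, 20 without *pad2-1* P-lim replicate 3 and 25 without *pad2-1* MV replicate 1. The cause was not tested. Of 1442 alternative values of single genes, 1173 kept direction and call, 269 kept the direction without passing and 0 reversed. No count over a list changed with the mean of all probe sets of a gene.

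Same-numbered arrays of the P-lim groups deviated with correlations of -0.03, 0.07 and 0.01. Over all 3 conditions these correlations lay between -0.18 and 0.11. The titles give a replicate number only, and the correlations cannot decide whether arrays of the same number were handled together. With the replicate number as a block 74 probe sets were higher and 4 lower under P-lim, with 11 gains and 44 losses against control and 28 gains and 13 losses against MV.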
